A study of Rattus norvegicus with 8 samples.

Results

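The aryl hydrocarbon receptor (AhR) and its closest partners and target genes were examined in rat liver after furan, through 7 genes: Ahr, Arnt, Ahrr, Tiparp, Cyp1a1, Cyp1a2 and Cyp1b1. They were chosen by symbol, as every non-control probe of the array whose annotated gene name was one of these 7, which gave 7 probes, 1 for each gene, of 30367 non-control probes in all. The samples were livers of male Fisher 344 rats aged 18 weeks. Of 8 rats, 4 were controls and 4 had been gavaged with furan, 8 mg per kg of body weight a day, with 5 dosing days in each week for 90 days in all. Livers of both groups were taken 24 h after the last dose. What the controls were gavaged with is not given in the sources used here. Each rat gave 1 Agilent single-colour array (Cy3), and the 4 arrays of a group are called control 1 to 4 and furan 1 to 4. A level below is the log2 of the background-subtracted spot intensity minus that array's own log2 75th percentile, so a level of 0 lies at that percentile. Levels of different probes are not on a common scale, and only the same probe, or differences within an array, were compared between groups.

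AhR is a transcription factor of the basic helix-loop-helix PAS family that is held in the cytoplasm by a chaperone complex until a ligand, such as a planar aromatic pollutant or a tryptophan product, binds it. It then enters the nucleus, pairs with ARNT and binds DNA at sites that share the core GCGTG. In liver its best known targets are the CYP1 monooxygenases. AHRR, which competes for ARNT, and TIPARP, an ADP-ribosyltransferase, are targets that act back on the receptor. CYP1A2 is also expressed in hepatocytes without an added ligand, mostly around the central vein, whereas CYP1A1 is usually low there until the receptor is activated. Furan itself is oxidised mainly by CYP2E1 in the liver.

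The first 30 bases of the array's Cyp1a1 and Cyp1a2 probes are shown because the main contrast rests on these 2 probes, and the whole of the Ahr probe and the first 30 bases of a second probe annotated to the receptor are shown because those 2 differed in their result. Each is written 5′ to 3′ as the array carries it, in lower case.
Cyp1a1 probe: caatagatttagataattcgcttagtgtaa
Cyp1a2 probe: ttttcctttctttttaaataacagcttttt
Ahr probe: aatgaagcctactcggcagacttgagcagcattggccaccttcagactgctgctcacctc
Ahr second probe: ggtgcaaggtattttaatgactgaaatgaa
By the array annotation, which uses the rn4 build, the Cyp1a1 probe lies at chr8:61468133-61468192 on the plus strand and the Cyp1a2 probe at chr8:61439236-61439295 on the minus strand, 28837 bases apart. The Ahr probe lies at chr6:54205172-54205231 and the second one at chr6:54203947-54204006, both on the minus strand. Although Cyp1a1 and Cyp1a2 are close paralogs, the longest run of bases that their full probes share was 6, and 16 of 60 positions were identical without gaps.

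Between 70.9% and 78.5% of the non-control spots of an array were well above background by the scanner's own flag. Arrays correlated with others of their group at Pearson's r between 0.979 and 0.993 across probes, and with arrays of the other group at 0.953 to 0.980. Replicate spots varied most on furan 1, with a median coefficient of variation of 10.8%, and next on control 2, with 7.86%, against 4.07% to 6.62% on the other 6. Arrays 1 and 2 of each group were on slide 1 and arrays 3 and 4 on slide 2. The 75th percentile used for scaling was an intensity of 827 to 1057 on control arrays and 1256 to 1596 on furan arrays. An equal unscaled intensity in both groups therefore gives a lower level after furan. The hepatocyte marker Alb was bright on all 8 arrays, at levels of 7.31 to 8.20.

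Across the 7 genes, the level of Cyp1a1 rose and those of Cyp1a2 and Tiparp fell. Ahr and Arnt did not pass the test, and Ahrr and Cyp1b1 were too dim to be tested. Testing was limited to probes detected, meaning well above background, on the full set of 4 arrays in either group, and a probe was called at an adjusted p below 0.05 (limma, two-sided, Benjamini-Hochberg over all 20268 probes tested). Of the 5 members tested, 3 were called, 1 higher and 2 lower, beside 33.8% of all probes tested (16.9% higher and 16.9% lower). The other 4 tested members were detected on all 8 arrays, whereas Cyp1a1 entered through the furan group, where it is high, so its call is not counted as support. The same 3 had no overlap between the groups, beside 18.4% of all probes with every furan value above every control value and 18% with every one below. The median change of the 5 was -0.38 and that of all probes tested was -0.03.

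**Figure D1:**
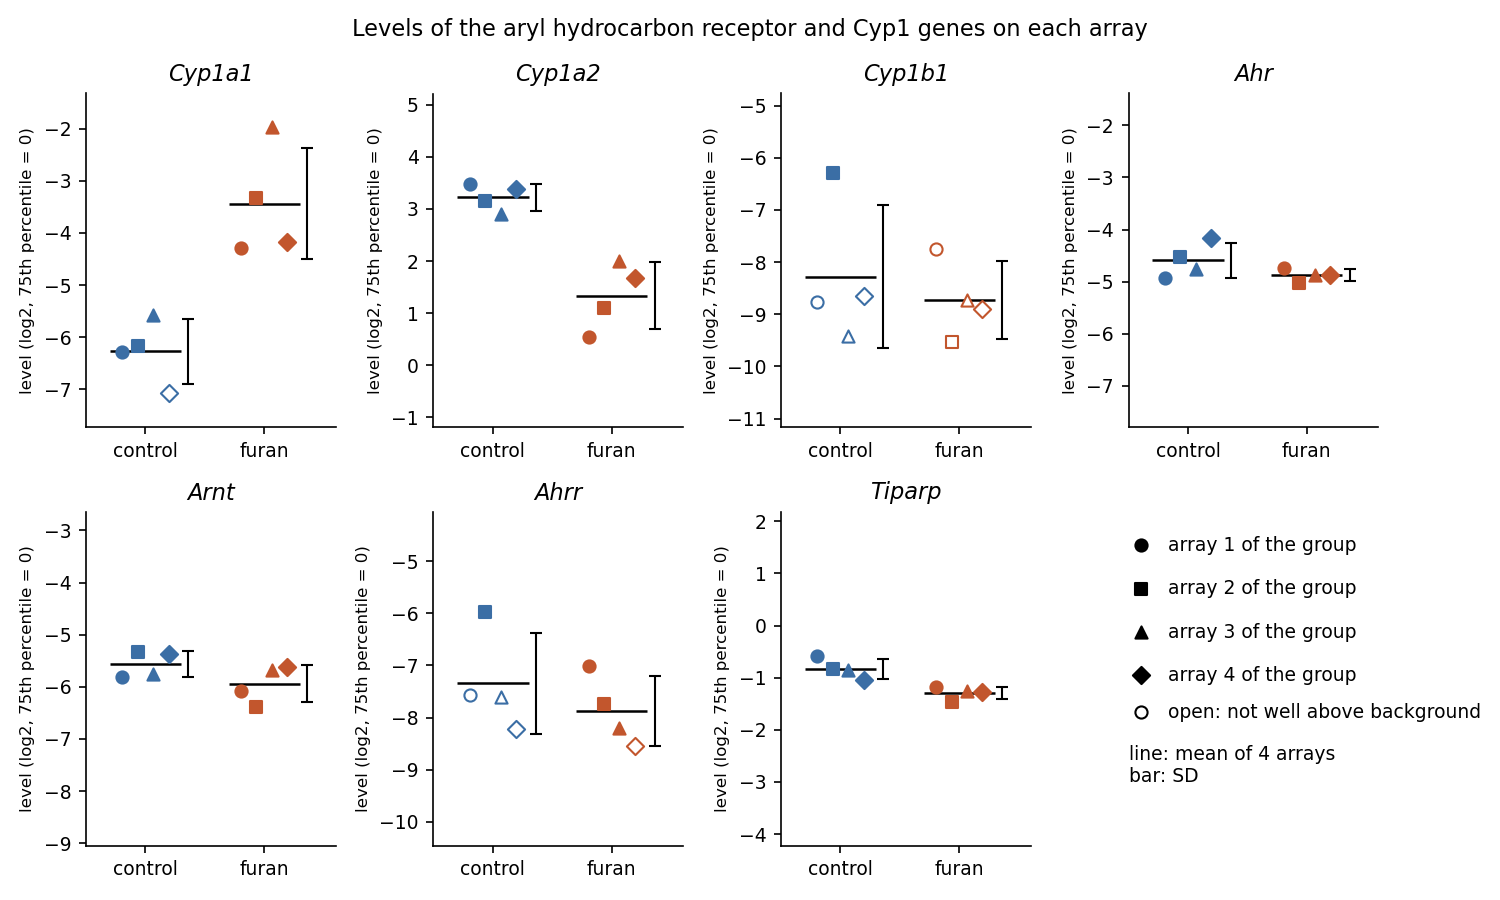
Level of each gene (y axis, log2 with the array's 75th percentile at 0, each panel spanning the same number of log2 units) on the 4 control and 4 furan arrays; marker shapes give the array number, open symbols are not well above background, lines are means and bars SD. Cyp1a1 lies between -7.07 and -5.57 in controls and between -4.29 and -1.98 after furan, and Cyp1a2 between 2.90 and 3.48 and between 0.54 and 2.01.

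Cyp1a1, the inducible monooxygenase that is the usual readout of receptor activation, had levels of -6.27, -6.17, -5.57 and -7.07 in controls 1 to 4 and of -4.29, -3.33, -1.98 and -4.17 in furan 1 to 4. Every furan array was above every control, and furan 3 was the highest. The mean rose from -6.27 ± 0.62 (SD, n = 4) to -3.44 ± 1.06 (SD, n = 4), a log2 change of 2.83 ± 0.53 (SE; 95% interval 1.63 to 4.03) or 7.12-fold, with an adjusted p of 0.00517 (limma). The probe entered the test through the furan arrays alone, since control 4 was not well above background, and the fold includes that dim array. Without control 4 the change was 2.56, and with normexp background correction (offset 50) in place of the scanner's processed signal it was 1.00. The change was 2.41 on slide 1 and 3.25 on slide 2. Without furan 3 it was 2.34 and without furan 1 it was 3.11, and it was called with any single array left out.

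The probe is printed 10 times on each array, which allows the reading to be followed spot by spot. Controls were close to the limit of detection, with 9 of 10 spots well above background on control 1, 8 of 10 on control 2, 9 of 9 usable spots on control 3 and 3 of 10 on control 4. All 10 spots were well above background on each furan array. Spots of furan 2, 3 and 4 lay within an SD of 0.08 to 0.09 of one another, but those of furan 1 had an SD of 0.88 and ran from -5.55 to -2.87. Some furan 1 spots were therefore at the level of control spots, although its mean was above every control. Control 4 counted as not well above background, and the size of the change moved with the background correction. With normexp correction it was 1.00 (adjusted p = 0.0207, limma), or 1.19 above the median of all probes, which that correction moved by -0.16.

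**Figure D2:**
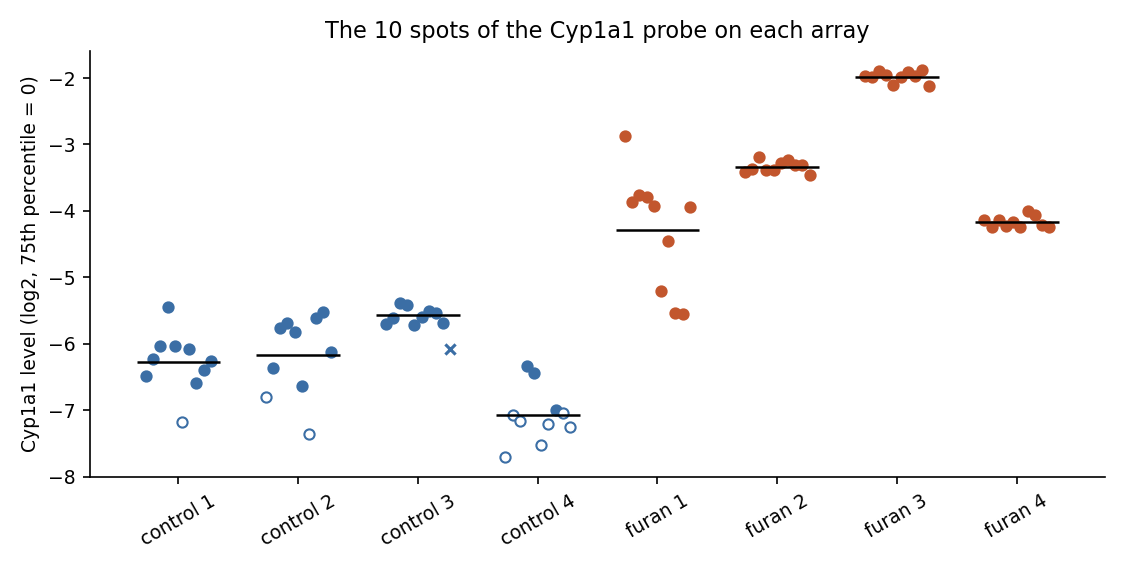
Level of each spot of the Cyp1a1 probe (y axis, log2 with the array's 75th percentile at 0) on each array; open circles are not well above background, the cross is a spot the scanner marked as an outlier and lines are means of the spots used. The spots of furan 2, 3 and 4 lie in tight groups, whereas those of furan 1 run from -5.55 to -2.87.

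Cyp1a2, the constitutive hepatocyte member of the family, which oxidises caffeine and aromatic amines, had levels of 3.48, 3.15, 2.90 and 3.38 in controls 1 to 4 and of 0.54, 1.11, 2.01 and 1.68 in furan 1 to 4. All furan arrays were below all controls. The mean fell from 3.23 ± 0.26 (SD, n = 4) to 1.33 ± 0.65 (SD, n = 4), a log2 change of -1.89 ± 0.31 (SE; 95% interval -2.59 to -1.20) or 3.71-fold lower, with an adjusted p of 0.00312 (limma). It was number 85 of 20268 from the largest decrease. The change was -2.49 on slide 1 and -1.29 on slide 2, and it ranged from -2.12 to -1.63 with single arrays left out, called each time. It was -1.81 with normexp correction, so unlike Cyp1a1 it changed little with the treatment of background.

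Levels of some other hepatocyte transcripts fell beside that of Cyp1a2. Among 7 hepatocyte markers tested, 4 were called lower, F9 (-1.57), Hnf4a (-0.98), Ttr (-0.71) and Serpina1 (-0.68), and Apoa1 was called higher (0.72), beside 16.8% of 17607 genes called lower and 17.2% called higher by their brightest probe. Alb had a change of -0.36 (95% interval -0.75 to 0.03). With quantile normalization the changes of Ttr, Serpina1 and Alb turned to 0.01, 0.03 and 0.35. The summed intensity of the hepatocyte list, relative to the 75th percentile, was 1011 to 1110 in controls and 709 to 917 after furan. That percentile was 827 to 1057 on control arrays and 1256 to 1596 on furan arrays, so this sum depends on the scaling. Of 9 markers of the pericentral hepatocytes in which Cyp1a2 is mainly found, 5 were called lower, Oat (-2.13), Tbx3 (-1.76), Slc1a2 (-1.14), Gulo (-0.81) and Glul (-0.79), and 1 higher, the ammonium transporter gene Rhbg (1.80). Their summed intensity, scaled in the same way, was 102 to 147 in controls and 70.8 to 125 after furan. Glul, the defining marker of that zone, lost its call without control 1, 2 or 3 or furan 2 or 4 (adjusted p 0.0558 to 0.0653, limma), and Slc1a2 without control 1, 2 or 4 or furan 1, 2 or 4 (0.0532 to 0.0944). In whole tissue, fewer cells of a type and less RNA per cell cannot be told apart, and the part of these shifts in the fall of Cyp1a2 was not tested.

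Set against each other within an array, Cyp1a2 minus Cyp1a1 was 9.75, 9.32, 8.47 and 10.45 over controls 1 to 4, and over furan 1 to 4 it was 4.83, 4.44, 3.99 and 5.84. All furan values were below all control values, and this difference does not depend on how arrays are scaled. The change of Cyp1a1 exceeded that of Cyp1a2 by 4.72. The exact two-sided permutation p was 0.0286, the smallest that 70 splits of 8 arrays allow. After Benjamini-Hochberg adjustment over the 3 pairs tested it was 0.0857, which does not pass 0.05. Cyp1a1 entered through the furan arrays, where it is high, so this p is not counted as support. Without control 4 the difference was smaller, at 4.41, with an adjusted p of 0.0429 (exact permutation). Ahr minus Tiparp had the same adjusted p in that setting, and the adjustment depends on the p of all 3 pairs. The lower adjusted p therefore does not mean a wider gap. With normexp correction the difference was 2.81. Within furan rats, furan 3 was highest and furan 1 lowest for both genes, while furan 2 and 4 stood in opposite order. For Cyp1a1, furan 1 at -4.29 lay close to furan 4 at -4.17, and the spots of furan 1 had an SD of 0.88.

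Cyp1b1, the third CYP1 enzyme, expressed mostly outside hepatocytes, had levels of -8.77, -6.29, -9.41 and -8.64 in controls 1 to 4 and of -7.74, -9.54, -8.72 and -8.91 in furan 1 to 4. Only control 2 was well above background, by 1 of 2 spots, and none of the 4 furan arrays was, so no fold is given. Its probe lies at chr6:2548567-2548626 on the minus strand of rn4. Control 2 and furan 1 had the highest values of their groups, and the same 2 arrays had the highest summed intensity of biliary markers (5.19 on control 2 against 0.581 to 0.943 on other controls, and 8.86 on furan 1 against 1.19 to 3.28) and of stellate cell and fibroblast markers (13.7 against 4.62 to 10.2, and 25.7 against 6.29 to 13.2). Replicate spots also varied most on these arrays, with a median coefficient of variation of 7.86% on control 2 and 10.8% on furan 1. The part of the markers or of this variation in the Cyp1b1 reading was not tested.

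The receptor gene Ahr itself had levels of -4.94, -4.53, -4.75 and -4.15 in controls 1 to 4 and of -4.74, -5.03, -4.88 and -4.87 in furan 1 to 4, well above background on all 8 arrays. The groups overlapped, with 1 furan value below every control. The log2 change was -0.29 ± 0.17 (SE; 95% interval -0.68 to 0.11), with an adjusted p of 0.230 (limma), and it was -0.14 without control 4. With normexp correction it was -0.41 and was called (adjusted p = 0.00945), or -0.22 relative to the shifted median of all probes. That setting adds an offset of 50, and the intensity of this probe was 27.0 to 55.7. Much of its level there was thus the offset over a scaling percentile that was higher on furan arrays. The setting by itself lowers the furan level of so dim a probe, so this call is not counted as support.

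A second probe is annotated to the rat receptor protein but carries a transcript cluster name in place of the symbol Ahr, so it lies outside the 7, and it was looked up after the values had been seen. It had levels of -1.83, -1.69, -1.66 and -1.34 in controls 1 to 4 and of -2.71, -2.42, -1.997 and -2.16 in furan 1 to 4. Here all furan arrays were below all controls in level, whereas the unscaled intensity was 232 to 387 in controls and 238 to 365 after furan. Its log2 change was -0.69 ± 0.18 (SE; 95% interval -1.10 to -0.28), with an adjusted p of 0.0194 (limma). The call was lost without control 4 (adjusted p = 0.0518) or furan 2 (0.0559), and the adjusted p ranged from 0.00769 to 0.120 over the alternatives. The 2 probes thus had changes of the same sign, of which 1 passed the test; the difference between them was not tested.

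Arnt, the obligate partner of AhR and of the hypoxia-inducible factors, had levels of -5.82, -5.33, -5.75 and -5.37 in controls 1 to 4 and of -6.09, -6.38, -5.69 and -5.63 in furan 1 to 4. Furan 1 and 2 were below every control, and furan 3 and 4 were within the control range. The log2 change of -0.38 ± 0.20 (SE; 95% interval -0.84 to 0.08) did not pass the test (adjusted p = 0.181, limma), and was -0.66 on slide 1, -0.10 on slide 2 and -0.23 without furan 2. With normexp correction it was -0.51 and was called (adjusted p = 0.00650), or -0.32 relative to the median of all probes. That setting adds an offset of 50, and the intensity of Arnt was only 14.7 to 28.3. Its level there was thus mostly the offset over a scaling percentile that was higher on furan arrays. The setting by itself lowers the furan level of so dim a probe, so this call is not counted as support. The Arnt probe lies at chr2:190385287-190385346 on the plus strand of rn4. The change of Ahr exceeded that of Arnt by 0.09, with an adjusted p of 0.629 (exact permutation).

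Ahrr, the repressor that competes with AhR for ARNT, had levels of -7.57, -5.97, -7.61 and -8.22 in controls 1 to 4 and of -7.01, -7.75, -8.19 and -8.55 in furan 1 to 4. It was well above background on 1 of 4 control arrays (control 2) and on 3 of 4 furan arrays, so it was not tested and no fold is given. Furan 3 counted by 1 of 2 spots, at a mean intensity of 5.84, close to the 5.40 of control 3, which did not count. As for Cyp1b1, the Ahrr levels of control 2 and furan 1 were highest in their groups. These arrays led in biliary and stellate markers and also in the variation between replicate spots. The part of either in the Ahrr reading was not tested. The Ahrr probe lies at chr1:29894853-29894912 on the plus strand of rn4.

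Tiparp, whose enzyme ADP-ribosylates AhR and limits its activity, had levels of -0.58, -0.83, -0.85 and -1.05 in controls 1 to 4 and of -1.19, -1.46, -1.26 and -1.27 in furan 1 to 4. The unscaled intensity was 475 to 587 in controls and 522 to 653 after furan. In level, however, no furan value reached the lowest control. The mean fell from -0.83 ± 0.19 (SD, n = 4) to -1.29 ± 0.12 (SD, n = 4), a log2 change of -0.47 ± 0.13 (SE; 95% interval -0.76 to -0.18) or 1.38-fold lower, with an adjusted p of 0.0228 (limma). This call was close to the threshold and was lost when any of 4 arrays was left out, with adjusted p of 0.0521 for control 1, 0.0519 for control 2, 0.0538 for control 3 and 0.0643 for furan 2, with median scaling (0.0543) and with no filter on dim probes (0.0548), and it ranged from 0.0154 to 0.251 over the alternatives. Its probe lies at chr2:155338483-155338542 on the plus strand of rn4. The change of Ahr exceeded that of Tiparp by 0.18 with an adjusted p of 0.629 (exact permutation). Without control 4 it did so by 0.40 with an adjusted p of 0.0429 (exact permutation). Cyp1a1 minus Cyp1a2 shared that adjusted p, which depends on the p of all pairs tested.

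**Figure D3:**
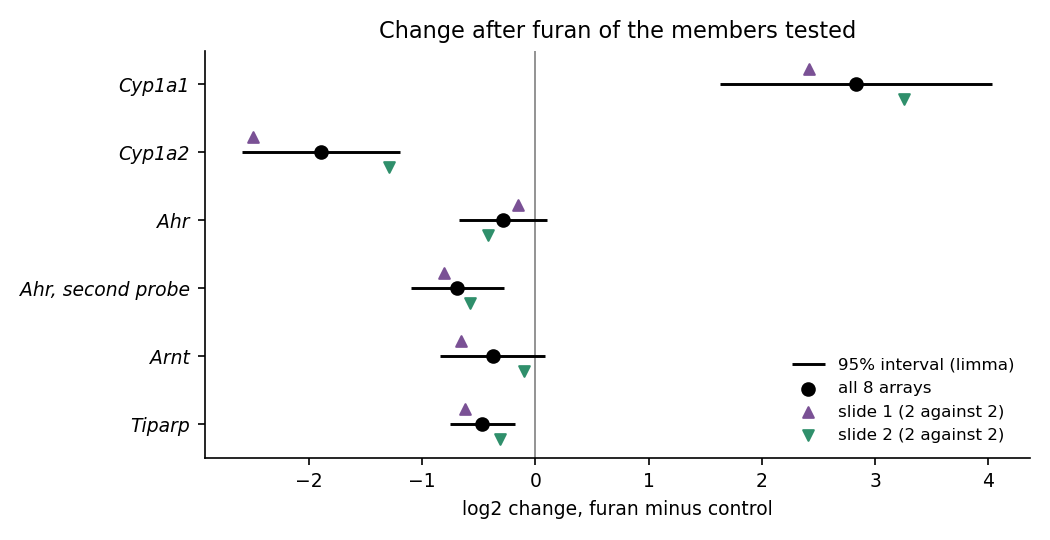
Log2 change, furan minus control (x axis), of the 5 members tested and the second Ahr probe; black points are all 8 arrays, lines the 95% interval of limma, and triangles the change within each slide (2 arrays against 2). The intervals of the Ahr member probe and of Arnt include 0, whereas that of the second Ahr probe does not. Cyp1a1 at 2.83 and Cyp1a2 at -1.89 lie on opposite sides.

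The 250 bases upstream of the annotated start were taken from RefSeq (GRCr8 build) for the 6 members matched there, all but Cyp1a1, and searched on both strands for the receptor's core GCGTG, which reads CACGC on the other strand. Of 33469 rat promoter windows of this length, 25.9% held the core, 8.12% held 2 or more and 2.58% held 3 or more. Of the 6, Ahrr held 3, Cyp1b1 held 2, Arnt and Tiparp held 1 each, and Ahr and Cyp1a2 held 0. The longer form TNGCGTG, which contains the core, was in 4.09% of windows and in those of Ahrr and Cyp1b1. The windows of Ahrr, as the richest, and of Tiparp and Cyp1a2, as the 2 members called lower, are printed with cores in capitals.
Ahrr: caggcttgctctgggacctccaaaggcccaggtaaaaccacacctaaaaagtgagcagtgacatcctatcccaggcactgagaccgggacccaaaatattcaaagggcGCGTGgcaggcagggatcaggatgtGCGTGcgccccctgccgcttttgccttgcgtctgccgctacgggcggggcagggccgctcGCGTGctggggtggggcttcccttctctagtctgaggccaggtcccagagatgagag
Tiparp: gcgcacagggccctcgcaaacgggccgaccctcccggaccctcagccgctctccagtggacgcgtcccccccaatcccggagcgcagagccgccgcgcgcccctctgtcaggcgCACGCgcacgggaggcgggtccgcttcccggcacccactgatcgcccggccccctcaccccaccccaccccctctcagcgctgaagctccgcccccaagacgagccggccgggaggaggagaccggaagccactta
Cyp1a2: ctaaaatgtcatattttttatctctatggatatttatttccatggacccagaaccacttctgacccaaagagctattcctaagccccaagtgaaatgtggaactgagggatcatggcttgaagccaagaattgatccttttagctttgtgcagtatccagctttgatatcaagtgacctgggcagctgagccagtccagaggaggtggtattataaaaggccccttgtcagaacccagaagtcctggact
These windows lie on GRCr8 at chr1:30821969-30822218 on the plus strand for Ahrr, chr2:152063519-152063768 on the plus strand for Tiparp and chr8:66978150-66978399 on the minus strand for Cyp1a2. A match, or the lack of one, describes letters in this window only. It says nothing of sites outside the window or of binding in these livers.

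Genes around the receptor were read from 5 lists, with each gene represented by its brightest tested probe. In all, 75 list genes were tested, of which 6 were called higher and 15 lower, and the background remains 17.2% of genes called higher and 16.8% lower. With normexp correction 27 of them were called lower, but that setting also turned the calls over all probes from 50.04% higher to 30.2% higher.

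The cytoplasmic complex and coactivators of AhR had 2 of 14 genes called higher and none lower (1 lower at an unadjusted p below 0.05, limma), with a median change of -0.04 that turned to 0.03 with scaling to detected probes only. Smarca4, a chromatin remodelling ATPase, rose by 0.56 (adjusted p = 0.00676, limma).

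The PAS family proteins that share ARNT or resemble it had 5 of 9 genes called lower and none higher (0 higher at an unadjusted p below 0.05, limma), with a median change of -0.57. Npas2, a partner in the circadian clock, had levels of -3.74, -2.18, -2.003 and -2.34 in controls 1 to 4 and of -4.86, -4.95, -4.77 and -4.28 in furan 1 to 4. It fell by 2.15 or 4.44-fold (adjusted p = 0.00389, limma), with no overlap between the groups. Npas1 fell by 0.82, Epas1, which encodes the hypoxia-inducible factor HIF-2α, by 0.79, and the clock gene Bmal1 by 0.70. Bmal1 lost its call without control 3 or 4 or furan 2 (adjusted p 0.0533 to 0.0594, limma). The fifth, Bmal2, had a change of -0.40 and an adjusted p of 0.0398, and is named to complete the count after its values were seen; its call was lost with single arrays left out other than control 4 and furan 1 (0.0544 to 0.105), and with quantile normalization (0.0537), scaling to detected probes (0.0789), median scaling (0.0812), no filter (0.0874), a variance trend (0.0594) and the slide as a block (0.0542).

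Targets of hypoxia-inducible factors had 4 of 14 genes called lower and none higher (1 higher at an unadjusted p below 0.05, limma), with a median of -0.19 (-0.32 with normexp correction). Vegfa, the angiogenic growth factor, fell by 1.02 (adjusted p = 0.00238, limma), Egln1, an oxygen-sensing prolyl hydroxylase, by 0.63, and Pdk1, a pyruvate dehydrogenase kinase, by 0.61. Ankrd37 fell by 0.67 (adjusted p = 0.0389, limma), a call lost when any single array other than control 2 was left out (0.0542 to 0.0982).

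The wider battery of genes reported to respond to AhR, beyond the members, had 3 of 21 called higher and 2 lower. At an unadjusted p below 0.05 (limma) these were 4 and 2. The median was 0.14 (0.0078 with normexp correction). Nqo1, a quinone reductase that is also a classic target of the oxidant sensor NRF2, had levels of -2.03, -2.68, -2.65 and -2.03 in controls 1 to 4 and of -0.20, -0.33, -0.76 and -1.02 in furan 1 to 4. It rose by 1.77 or 3.41-fold (adjusted p = 0.00169, limma) without overlap. Ephx1, microsomal epoxide hydrolase, rose by 1.48 and Htatip2 by 0.87. Xdh, xanthine dehydrogenase, fell by 0.73, and the fatty acid transporter gene Cd36 by 0.72 (adjusted p = 0.0409, limma), a call lost when any single array other than control 2 was left out (0.0552 to 0.102). Among the 16 not called were Aldh3a1 and Ugt1a6, textbook companions of Cyp1a1 that were picked out after their values were seen. Aldh3a1 ranged from -6.93 to -3.01 in controls and from -6.38 to -3.62 after furan, with a change of 0.50 (95% interval -1.68 to 2.68), and was highest on control 2. Ugt1a6, whose probe may read other transcripts of the Ugt1a locus, had a change of -0.03 (95% interval -0.35 to 0.28).

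Enzymes that turn tryptophan into kynurenine and related products, among which are ligands of AhR, had 1 of 17 genes called higher and 4 lower, with a median of -0.21. Kynu, kynureninase, had levels of 3.41 to 3.67 in controls and 1.47 to 2.49 after furan and fell by 1.49 or 2.82-fold (adjusted p = 0.00298, limma). Aox1 fell by 0.74 and the aminotransferase gene Kyat3 by 0.71. Kmo, kynurenine monooxygenase, fell by 0.62 (adjusted p = 0.0311, limma), a call lost without any single control or without furan 1 or 2 (0.0535 to 0.0802). Acmsd, which steers the route away from NAD synthesis, rose by 0.76 (adjusted p = 0.0234, limma), lost without control 1, 2 or 4 or furan 3 or 4 (0.0506 to 0.0604).

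**Figure D4:**
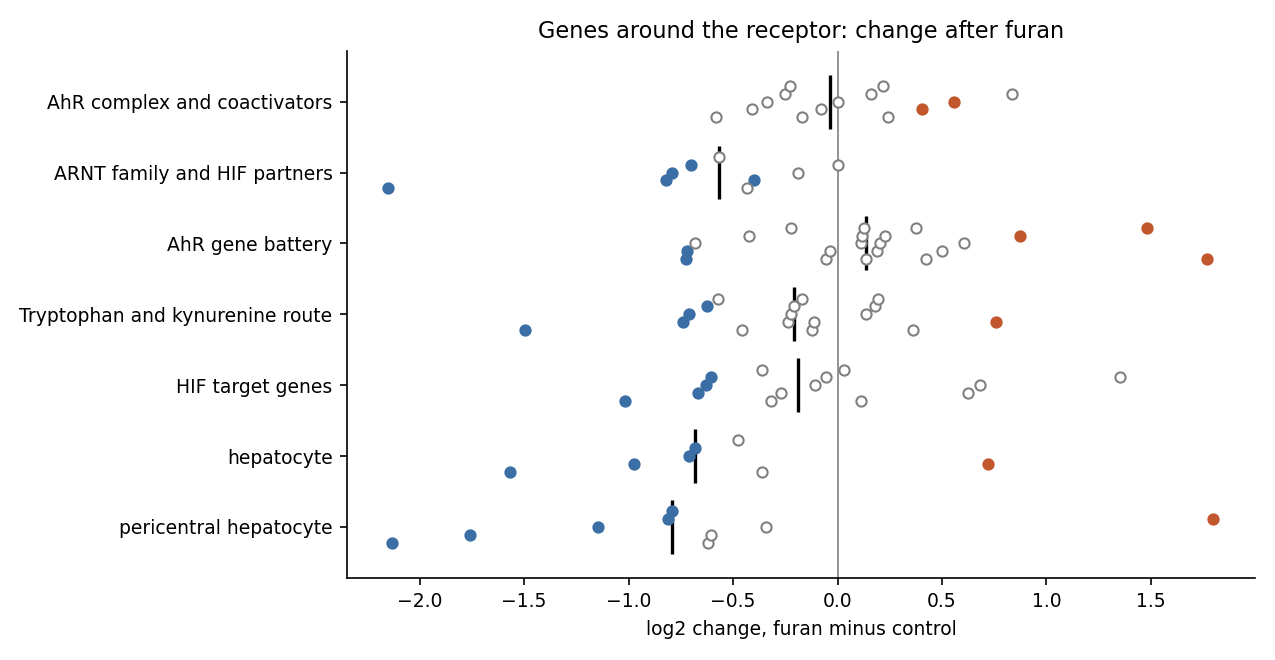
Log2 change, furan minus control (x axis), of each tested gene of the 5 pathway lists and the 2 hepatocyte marker lists (rows); filled orange points are called higher, filled blue points called lower, open points not called, and vertical bars are list medians. The ARNT family has 5 points called lower and none called higher.

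Markers of other liver cells were read in the same way. Of 7 biliary markers 2 were called higher and none lower (4 and 0 at an unadjusted p below 0.05, limma), Epcam, which rose by 1.79 (adjusted p = 0.00748, limma), and Sox9, which rose by 0.48 (0.0219), the latter lost without control 1 (0.0565) or control 2 (0.0533) and with normexp correction (0.213). Krt19, the defining biliary marker, ranged from -4.33 to 0.32 in controls and from -3.62 to 0.71 after furan, highest on control 2 and furan 1. None of 9 stellate, 7 macrophage, 6 endothelial and 3 lymphocyte markers was called, and 1 of them, an endothelial marker, had an unadjusted p below 0.05 (limma). However, Pecam1 was called lower without control 1 (adjusted p = 0.0201, limma) and Cdh5 without furan 4 (0.0470) and with normexp correction (0.0134). The defining markers Col1a1, Cd68 and Pecam1 had changes of 0.33, 0.18 and -0.37, and Cd3e was not tested, being well above background on 3 of 4 arrays in each group.

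For the 4 members above background on all 8 arrays, the 3 genes with the closest pattern were taken from 12076 named genes, by the root mean square difference of the 8 levels after each gene was centred on its own mean. Nearest to Cyp1a2 were Patel14l2 (0.147), whose near copies could share the probe's signal, Gstm7 (0.150), a glutathione transferase gene, and Fgf1 (0.207), with changes of -1.73, -1.90 and -1.80. Nearest to Tiparp were Frem2 (0.0602), Champ1 (0.0673) and Slc30a1 (0.0719). Arnt was closest to Klf10 (0.0905), Slc37a4 (0.123) and Scfd2 (0.136), and Ahr to Prkra (0.0881), Raly (0.0883) and Adgre1 (0.0900). These distances describe 8 arrays in 2 groups, and they were not tested. A close pattern over these arrays includes a similar furan change. The changes given for the neighbours of Cyp1a2 are therefore no separate result.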

How the data were processed

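Per the file headers and the submitters' processing notes, spots were extracted from the authors' scans with Agilent Feature Extraction 10.7; the deposited files give background-subtracted intensity for each of 62976 spots, with detection, outlier and control flags. From these, the log2 intensity minus each array's 75th percentile over 58717 non-control spots was taken, outlier spots were dropped and spots of a probe averaged. A probe counted as detected on an array where at least 50% of its spots were well above background. Groups were compared with limma 3.58.1 (R 4.3.3; lmFit and eBayes), checked on simulated data. The number of arrays limits the precision. Members and lists were chosen with earlier results of these data known. From each list the text names up to 4 called genes in the commoner direction and up to 2 in the other, by size of change, or the smallest p where none was called, and the defining marker; for each member detected on all arrays, its 3 nearest genes. Alternatives covered background correction, scaling, filter, outlier spots, probe choice, variance trend, slide, replicate block, left-out arrays and the deposited series table, which held the same intensities scaled to one 75th percentile. Promoter sequences are RefSeq's (GRCr8). Replicate numbers did not pair the arrays (same-numbered deviations correlated at -0.30, 0.11, 0.28 and 0.04), so the fit has no block. Results of some list genes are counted in their lists and not reported here by name.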

Additional observations from a re-analysis of the deposited data

Results flagged for a closer look

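Among 96 groups of 4 arrays examined by Dixon's test, 3 held an array set apart from the other 3, and chance alone sets apart about 1 in 20. Ephx1 was at 3.51 on control 1, against 3.35 to 3.37 on the other controls, and at 4.63 on furan 4, against 4.94 to 4.98 on the other furan arrays. Gulo was at 3.38 on control 3, against 3.76 to 3.81. None of the 7 members was set apart in either group.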

How the results depend on the processing

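Changes of Cyp1a1 and Cyp1a2 kept their direction under every alternative run; Cyp1a1 could not be tested where detection on all 8 arrays was asked for. With normexp correction 5 members were called, in place of 3, and 27 list genes were called lower, in place of 15. Over all probes that setting called 3070 higher and 7102 lower, in place of 3429 and 3423. The added calls of Ahr and Arnt are not counted as support, since the offset of 50 by itself lowers the furan level of dim probes. Slide 1 alone (2 arrays against 2) called 0 members and 0 list genes either way (3 members and 20 list genes at an unadjusted p below 0.05; 136 probes higher and 39 lower over all), and slide 2 alone called 1 member, 2 list genes higher and 3 lower; Cyp1a1 had adjusted p of 0.0752 and 0.0871 on them and Cyp1a2 0.0594 and 0.0491 (limma). Leaving out single arrays gave 2 to 3 members called, 4 to 8 list genes higher and 10 to 17 lower. A replicate block called 3 members, with 5110 probes called in place of 6852; Ankrd37, Bmal2, Cd36, Kmo, Slc1a2 and Sox9 lost their calls, and 1 of 4 control arrays, control 3, correlated best with the furan array of its own number. Median scaling called 4726 probes and ended the calls of Tiparp, Acmsd, Ankrd37, Bmal2, Cd36, Kmo, Slc1a2 and Sox9; no filter called 4893 and ended those and Glul. Quantile normalization and the slide as a block each ended the calls of Bmal2 and Slc1a2, and the slide block called Alb lower (adjusted p = 0.0431, limma). Without control 2 and furan 1 together the calls of Tiparp, the second Ahr probe, Bmal1, Bmal2, Glul, Kmo, Kyat3, Npas1, Pdk1, Slc1a2 and Sox9 were lost.

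Cyp1a1 minus Cyp1a2 ranged from 4.41 to 5.08 with single arrays left out. Ahr minus Tiparp ranged from -0.0148 to 0.40 (-0.0012 with normexp) and Ahr minus Arnt from -0.0040 to 0.20, with -0.0007 without furan 1. Reversed with quantile normalization were Alb (0.35), Serpina1 (0.0315), Ttr and the hepatocyte median (both 0.0097) and Ugt1a6 (0.176). Ugt1a6 also reversed with normexp (0.0078), scaling to detected probes (0.0366), slide 2 alone (0.149) and without control 2 and furan 1 (0.0264), and ranged from -0.10 to 0.0543 with single arrays left out. Aldh3a1 reversed with normexp (-0.17) and on slide 2 (-0.156), where Cd68 (-0.137), Col1a1 (-0.316) and the stellate median (-0.372) did too. The AhR complex median reversed with scaling to detected probes (0.0322), on slide 1 (0.0180) and without control 2 and furan 1 (0.0541), and ranged from -0.0582 to 0.0186 over single arrays. On slide 1 the battery median was -0.0363 and the lymphocyte median 0.158. Over single arrays the lymphocyte median ranged from -0.48 to 0.0190, the stellate median and Col1a1 from -0.0086 to 0.50 and 0.55, and Krt19 from -0.19 to 1.75. The cause was not tested. Dim signals limit Cyp1a1 in controls, Ahrr and Cyp1b1 most.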
